A study of Mus musculus with 15 samples.

Results

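The comparison described here set gastrocnemius muscle of aged, low-frailty mice taken 24 h after downhill treadmill running against the same muscle of low-frailty mice that had stayed in their cages. Members were the 4 libraries labelled robust 24h (Low Run, mice D57, D61, D66 and D68) and the 4 labelled robust control (Low Control, mice D8, D9, D11 and D98), 8 of the 15 libraries in the series, each from 1 mouse. All were female C57BL/6JN mice older than 17 months with no transgene or deletion, and all carried at most 1 positive frailty marker, a class assigned after testing from body weight, a frailty index, treadmill endurance, grip strength and rotarod performance. Low Run mice had run 2 bouts down a 22 degree decline at 13 m per min, in 10 stages per bout, and Low Control mice had not run. The other 7 libraries came from mice with more frailty markers (High Control, 3 mice, and High Run, 4 mice) and entered the test so that all groups shared 1 estimate of the spread. The question was how the transcriptome of low-frailty muscle differed a day after running.

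Downhill running makes the hind limb extensors lengthen while they are active. Such eccentric work can disrupt sarcomeres, the linkers that tie them to the membrane and the calcium release units, and it is classically followed by entry of neutrophils and macrophages, activation of satellite cells and rebuilding of fibres and matrix. The mouse gastrocnemius is a mixed but mainly fast muscle, so its messenger RNA is dominated by type IIb myosin, fast troponins, the calcium pump and glycolytic enzymes. Muscle also adjusts its protein breakdown and fuel use to feeding and to glucocorticoid hormones through FoxO and the glucocorticoid receptor. Because whole muscle was sequenced, fewer cells of a type and less RNA per cell cannot be told apart.

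Library totals in the 8 mice ran from 19395125 to 26003872 counted fragments, and the 10 most abundant genes took 20.3 to 26.5% of them. Levels below are counts divided by library size (CPM) after scaling by the trimmed mean of M values. The libraries were muscle by their markers, with the fast myosin gene Myh4 between 32689 and 69150 CPM in each. Mouse D9, a Low Control, stood apart on the first principal component, at -92.2 against -19.7 to 32.3 in the other 7, and had the highest summed level of 23 of the 53 gene lists examined. D57 and D68, both Low Run, had short transcripts raised relative to long ones, D61 held most of the lymphocyte transcripts and D68 most of the neutrophil transcripts. Many list counts changed when a single mouse was left out, and the larger of these changes are given beside them.

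No gene passed a false discovery rate (FDR) of 0.1 in the edgeR quasi-likelihood test of Low Run against Low Control (0 of 16920 genes, 0% called), and the lowest adjusted p was 0.358. The unadjusted edgeR p was under 0.05 for 2274 genes (13.4%), of which 1002 were higher in Low Run (5.92%) and 1272 lower (7.52%), and this number was 846 without D9 and 1253 without D57. In 1173 genes (6.93%) the 4 values of one group lay wholly outside those of the other, 566 with Low Run above (3.35%) and 607 with Low Run below (3.59%). DESeq2 fitted to all 15 mice called 10 of 26711 genes at the same FDR (0.0374%), and fitted to the 8 Low mice it called 28 of 18346 (0.153%). The median log2 fold change was 0.02. Counts of list members below are therefore at the unadjusted edgeR p of 0.05 and are to be read against 5.92% higher and 7.52% lower. They contain no gene that passed the FDR in edgeR. Some members were among the DESeq2 calls, such as Trac, Cxcl9 and Zfp84 over all 15 mice and Lep and Cidec in the 8 Low mice. Upper-quartile scaling raised the share of these genes that were higher in Low Run from 44.1% to 60.4%.

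Genes that separated the groups in every mouse were of mixed function. Nt5c encodes a cytosolic deoxyribonucleotidase, an enzyme that removes phosphate from deoxyribonucleotides. It stood at 4.69, 4.55, 5.396 and 4.90 CPM in D8, D9, D11 and D98 and at 8.07, 8.25, 8.06 and 7.72 CPM in D57, D61, D66 and D68. Every runner thus lay above every control, with a gap wider than the range within either group. Its mean was 4.88 ± 0.37 CPM (SD, n = 4) in Low Control and 8.02 ± 0.22 CPM (SD, n = 4) in Low Run, a log2 fold change of 0.72 (SE 0.15). Nt5c (chromosome 11, 115490420 to 115491862, minus strand, GRCm38) had an edgeR p of 0.000247, and its log2 fold change was 0.67 without D9.

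Lrrc52, a leucine-rich repeat protein known as an auxiliary subunit of large-conductance potassium channels, went the other way. Its values were 4.69, 6.21, 5.31 and 3.71 CPM in the Low Controls and 2.35, 2.20, 1.58 and 1.65 CPM in the runners, again without overlap. The log2 fold change of Lrrc52 (chromosome 1, 167445669 to 167466780, minus strand) was -1.35 (SE 0.26), the smallest p of all genes tested by edgeR at 9.9e-05, with a DESeq2 adjusted p of 0.0235 over all 15 mice. The zinc finger gene Zfp84 stood at 9.59, 14.9, 10.4 and 9.57 CPM against 4.67, 6.13, 7.97 and 4.26 CPM, a log2 fold change of -0.95, and -0.78 without D9, its highest mouse. Prkar2b, a regulatory subunit of protein kinase A that was chosen after its values were seen, had the lowest adjusted p of DESeq2 in the 8 Low mice, 0.00202. It was at 9.07, 8.53, 9.20 and 7.49 CPM against 3.36, 4.86, 4.48 and 3.26 CPM, and its edgeR log2 fold change was -1.10.

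Among abundant genes the fixed rule of naming (the largest change in mean CPM among genes without overlap, 5 in each direction) gave H19, Cox4i1, Actb, Cyc1 and Cst3 above and Myh4, Pde4dip, Cmya5, Myom1 and Clip1 below. Exon length was 1266 to 2679 bases in the 5 above and 6016 to 16857 bases in the 5 below. Myh4 and Pde4dip were lowest in D57 and D68, the runners with short transcripts raised. The trend with length described further below runs the same way, and its part in these differences was not tested. H19, an imprinted long non-coding RNA that is high in embryonic and regenerating muscle, was at 831, 685, 949 and 1015 CPM in Low Control. In Low Run it was at 1477, 1155, 1372 and 1363 CPM, a log2 fold change of 0.62 (SE 0.22). Actb, the non-muscle actin found in cells of the interstitium and in immature fibres, read 257, 202, 267 and 310 CPM against 352, 373, 312 and 397 CPM, so that the highest control and the lowest runner nearly met. The log2 fold change of Actb was 0.47 (SE 0.14). Cyc1, a subunit of respiratory complex III, and Cox4i1, of complex IV, differed by 0.32 (SE 0.18) and 0.22 (SE 0.14) and, although without overlap, had p values of 0.0971 and 0.14. In both the highest runner was D68, at 533 CPM for Cyc1 and 859 CPM for Cox4i1. The separation of Cyc1 was marginal, with the control D11 at 436 CPM and the runner D57 at 440 CPM. Cst3, the secreted protease inhibitor cystatin C, had a log2 fold change of 0.33 (SE 0.13).

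Myh4, the type IIb myosin heavy chain that fills the fastest fibres, was at 69150, 49887, 48770 and 56131 CPM in Low Control and at 37149, 43534, 46905 and 32689 CPM in Low Run. All 4 runners lay below all 4 controls, though D66 and D11 were close. The means were 55985 ± 9356 CPM and 40069 ± 6370 CPM (SD, n = 4 each), a log2 fold change of -0.48 (SE 0.17). Myom1, the myomesin that cross-links thick filaments at the M-band, and Cmya5, a costamere and sarcoplasmic reticulum scaffold, had log2 fold changes of -0.48 (SE 0.13) and -0.44 (SE 0.13). Pde4dip, a centrosomal and Golgi anchor of phosphodiesterase, had -0.80 (SE 0.27). Clip1, a microtubule plus-end protein, was at 788, 1615, 582 and 514 CPM against 353, 482, 461 and 416 CPM, and its log2 fold change moved from -1.03 to -0.56 without D9.

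**Figure D1:**
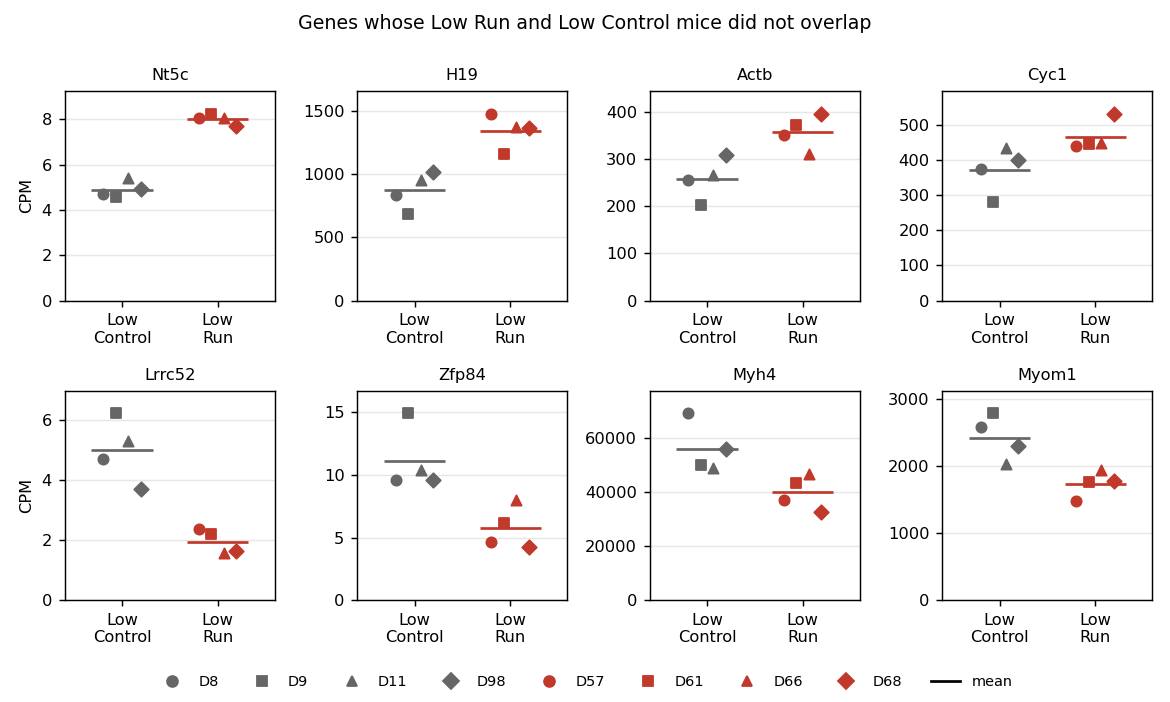
CPM of 8 genes in each mouse on linear axes from 0, Low Control in grey and Low Run in red, with one symbol per mouse and a line at the group mean. The groups do not overlap in any panel, with the widest relative gap for Nt5c and Lrrc52, while for Actb, Cyc1, Myh4 and Myom1 the nearest mice of the groups almost touch.

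**Figure D2:**
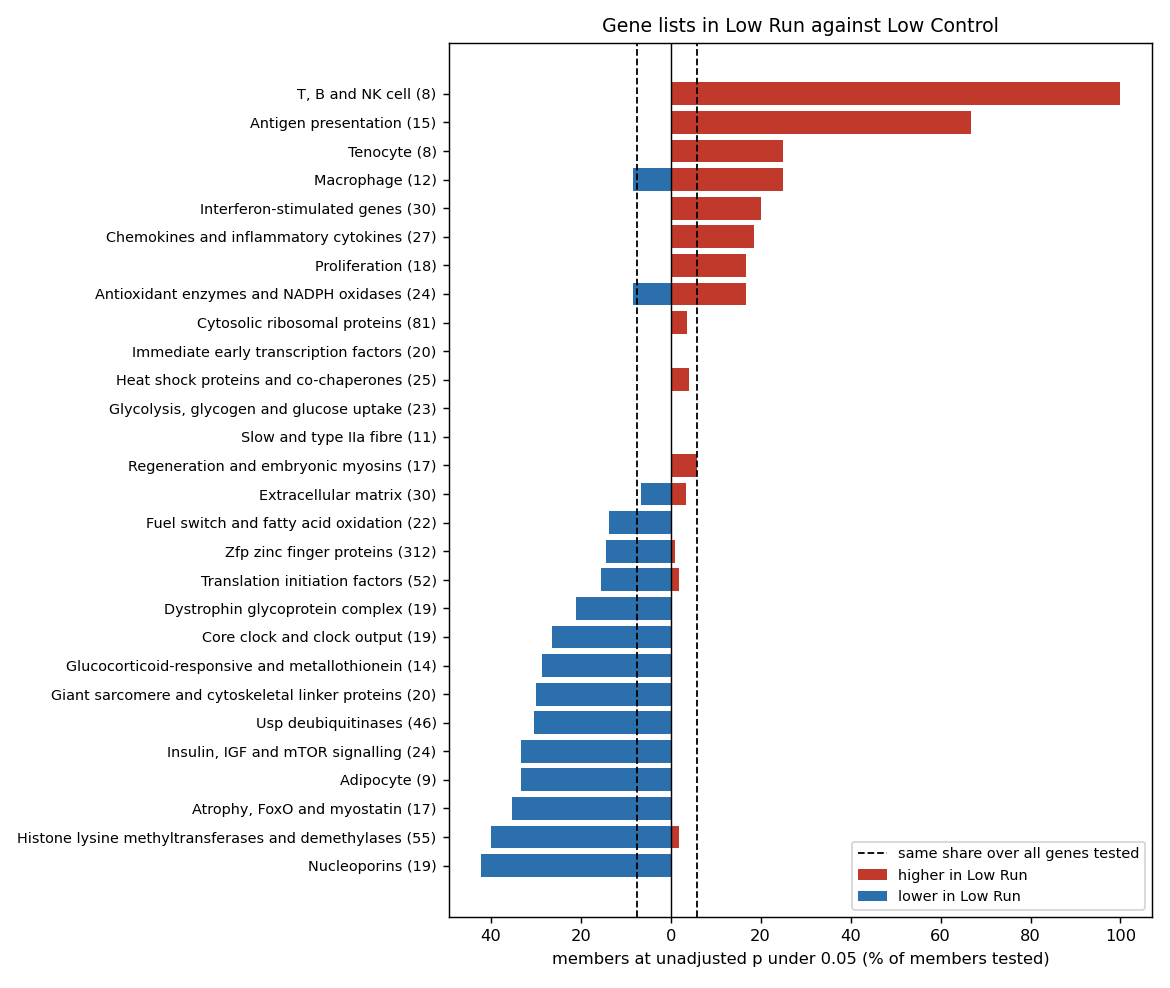
Percent of each gene list's tested members that were higher (red) or lower (blue) in Low Run at an unadjusted edgeR p under 0.05, with dashed lines at the share of all 16920 genes tested (5.92% higher, 7.52% lower). Lymphocyte and antigen presentation lists extend furthest to the higher side, and nucleoporins, histone methyltransferases and demethylases, atrophy, insulin signalling and adipocyte lists to the lower side. The lymphocyte markers did not pass the filter on low counts in the Low mice alone, so their bar is not comparable with the dashed line.

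Lymphocyte and antigen presentation transcripts had the greatest share of members on the higher side among the 53 lists, and interferon-stimulated and chemokine genes were also above the share of all genes. Of 8 markers of T, B and NK cells tested, 8 were higher and 0 lower, with a median log2 fold change of 3.05, at very low counts and mainly in D61. The summed CPM of the 8 was 33.6 in D61 and 1.90 to 6.01 in the other runners, against 0.69 to 2.30 in the controls. Without D61, 3 were higher and the median was 1.46. Cd8a and Ncr1 had too few counts to test, and in the fit to the 8 Low mice none of the markers passed the filter on low counts. Genes so low in the controls enter the test only if other mice are high. The share of these markers is therefore not comparable with that of all genes. Trac, the constant part of the T cell receptor alpha chain, was counted 0, 1, 2 and 2 times in the controls and 8, 95, 8 and 11 times in the runners. Every runner had more Trac counts than any control, and DESeq2 over 15 mice gave it an adjusted p of 0.043. Ptprcap, a lymphocyte protein that binds the phosphatase CD45, was counted 3, 2, 2 and 4 times against 9, 102, 19 and 6 times.

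Of 23 immunoglobulin variable genes tested by edgeR, 11 were higher and 0 lower, and of 11 constant genes 5 were higher and 0 lower. Members with few counts in the controls enter the test only if other mice are high. These shares are therefore not comparable with those of all genes either. Ighd, the heavy chain constant region of naive B cells, had 4, 1, 3 and 4 counts in Low Control and 5, 86, 26 and 11 in Low Run, while the variable segment Ighv1-55 had 0, 1, 0 and 0 against 68, 13, 12 and 0. D57 thus held most of the Ighv1-55 counts and D61 most of the Ighd counts. Igkv12-98, a light chain variable segment chosen after its values were seen, had 20, 7, 9 and 1 counts in the controls and 0 in each runner, and DESeq2 in the 8 Low mice gave it an adjusted p of 0.0795. Variable segments are near-identical copies, so the share of each is uncertain. Of the 10 genes that DESeq2 called over 15 mice, Trac, Ptprcap, Ighd, Ighv1-55, Cxcl9, Napsa and Kcnn4 are genes of lymphoid or other immune cells or of the interferon response, and the rest were Lrrc52, Nt5c and Zfp84. Trac, Ptprcap, Ighd and Ighv1-55 had 5, 11, 12 and 1 counts summed over the 4 controls, so the same limit holds for them. The share of immune genes among all genes tested was not counted, so this tally is a description only.

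The rule for large differences (protein-coding genes with p under 0.01, no overlap and a mean of at least 1 CPM in either group) left 79 genes higher in Low Run, and its 10 largest were Ptprcap, Ms4a4b, H2-DMb2, Napsa, Socs1, Kcnn4, Cd52, Samsn1, Fam169b and Hvcn1. Ptprcap, Ms4a4b, H2-DMb2, Cd52, Samsn1 and Hvcn1 are known from leukocytes. Ptprcap, Ms4a4b and H2-DMb2 reached a mean of 1 CPM only through D61, at 3.68, 4.36 and 4.90 CPM. In the other runners they were at 0.30 to 0.90 CPM. A floor that genes pass only where they are high favours such genes, so leukocyte genes among the 10 are a description only. Napsa, an aspartic protease of B cells and lung, had 0.82, 0.62, 0.62 and 0.46 CPM against 2.10, 5.08, 1.24 and 2.16 CPM, a log2 fold change of 2.07 (SE 0.47), and 1.52 without D61. Kcnn4, a calcium-gated potassium channel of lymphocytes and red cells, had 1.88 (SE 0.41), and 1.46 without D61. Socs1, the feedback inhibitor of JAK and STAT signalling that interferon induces, had 1.92, and 1.88 without D61. Hvcn1, a proton channel that serves the oxidative burst, had 1.54, and 1.10 without D61. H2-DMb2, a peptide-loading chaperone of class II, depended most on D61, with a log2 fold change of 2.53 that became 1.05 without it.

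Chemokines that interferon gamma induces to draw T cells were led by Cxcl9. It was at 0.87, 0.45, 1.37 and 0.54 CPM in Low Control and at 11.1, 11.1, 2.09 and 0.90 CPM in Low Run. D57 and D61 were high, D66 was just above the controls and D68 was among them. The log2 fold change was 2.97 (SE 0.68), 2.53 without D61, with a DESeq2 adjusted p of 0.0235 over 15 mice. Cxcl10 read 1.26, 0.70, 2.17 and 1.16 CPM against 5.84, 4.29, 1.96 and 1.20 CPM, again highest in D57 and D61. In the list of 27 chemokines and cytokines tested, 5 were higher and 0 lower (Cxcl9, Ccl5, Cxcl10, Cxcl16 and Ccl2), with a median of 0.17, and without D61 3 were higher and 1 lower.

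Antigen presentation genes lay on one side throughout: all 15 tested had positive log2 fold changes, 10 were higher at the unadjusted threshold and the median was 0.73. H2-T23, a non-classical class I molecule that binds NK cell receptors, was at 16.6, 16.1, 22.2 and 13.3 CPM against 43.2, 29.4, 20.03 and 20.2 CPM, a log2 fold change of 0.73 (SE 0.24). D57 and D61 lay well above every control, while D66 and D68 lay within them. H2-Aa, a class II alpha chain of professional antigen-presenting cells, showed 29.8, 13.7, 31.2 and 21.5 CPM against 70.0, 86.2, 36.4 and 16.1 CPM. B2m, the light chain that all class I molecules share, was named outside the rule and was at 123.4, 91.1, 198 and 117 CPM against 324, 187, 132 and 145 CPM, with a log2 fold change of 0.57. Without D8 the number of the 15 higher was 6, without D9 it was 1, without D57 it was 1, without D61 it was 2, without D98 it was 3 and without D68 it was 14. Class I heavy chains are close paralogs and their counts may be shared between genes.

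Among 30 interferon-stimulated genes tested, 6 were higher and 0 lower, with a median of 0.59 and 26 positive. D57 set this group apart: without it 0 were higher and the median was 0.16, without D9 also 0 were higher, without D8 3 were, without D68 12 were and without D11, the control with the highest level, 19 were. Igtp and Irgm2, interferon-induced GTPases that act against intracellular microbes, show the pattern. Igtp (chromosome 11, 58199556 to 58207591, plus strand) was at 15.3, 8.86, 26.4 and 17.5 CPM in the controls and at 125, 25.0, 19.6 and 17.1 CPM in the runners. Irgm2 was at 17.3, 11.0, 29.7 and 21.04 CPM against 114, 29.4, 28.3 and 16.7 CPM. In both only D57 lay clearly outside the controls. The annotated spans of Igtp and Irgm2 overlap on one strand, so that some of their fragments may be shared.

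The immunoproteasome subunits, which replace the standard catalytic subunits under interferon gamma, were 3 of the 4 proteasome genes higher out of 37, with 1 lower. Psmb8 was at 6.55, 4.84, 13.2 and 7.06 CPM against 25.3, 17.4, 9.72 and 8.87 CPM, again with D57 and D61 above all controls. Psmb8, Psmb9 and Psmb10 had log2 fold changes of 0.95, 0.99 and 0.70, and the median of the 37 subunits was -0.13. Without D9, and likewise without D57, 0 of the 37 were higher and 0 lower, and without D8 0 were higher. Psmb9 overlaps its neighbour Tap1.

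Promoter sequence is given for members of the interferon-stimulated and antigen presentation lists and, further below, for one atrophy gene. RefSeq windows of 300 bases that span the transcription start (build GRCm38.p6) were found for 24 of the 30 interferon-stimulated genes, and 15 of these (62.5%) held the ISRE-like motif (GAAA, any 2 bases, GAAA) on either strand, against 3.99% of all 27025 genes with a window. The GAS motif TTCNNNGAA was in 11 (45.8%) against 9.55%. The interferon-stimulated list was made of known interferon targets, so this is a description of the list and not of the response. Of 11 antigen presentation genes with a window, 2 (18.2%) held the ISRE-like motif, B2m among them, and 0 held the GAS motif. In the windows shown the ISRE-like match is in capitals, each is on the plus strand and outside annotated exons, and the flanks are those in the genome; Igtp is chr11:58199487-58199555, Irgm2 chr11:58214878-58214957 and B2m chr2:122147513-122147592. The match lies 34 to 25 bases before the start for Igtp, 64 to 55 for Irgm2 and 139 to 130 for B2m. A GAS match lies just before it in Igtp and Irgm2 without overlap.
Igtp: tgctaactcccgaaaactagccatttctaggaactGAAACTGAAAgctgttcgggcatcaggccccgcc
Irgm2: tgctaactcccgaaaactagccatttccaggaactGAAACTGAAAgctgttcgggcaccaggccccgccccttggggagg
B2m: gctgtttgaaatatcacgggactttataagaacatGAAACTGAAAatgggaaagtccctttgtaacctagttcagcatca

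Myeloid markers, which classically appear in muscle within a day of eccentric damage, did not give one picture over the 4 runners. Of 8 neutrophil markers tested, 1 (Ngp) was higher, and the median log2 fold change of 2.16 came from D68. S100a8, a calcium-binding protein that fills the neutrophil cytosol, was at 19.9, 5.46, 3.23 and 3.59 CPM in Low Control and at 4.88, 3.39, 3.11 and 145 CPM in Low Run, so that 3 of 4 runners lay within the range of the controls or below it. The neutrophil sum was 481 CPM in D68, and the median was -1.08 without it. Macrophage markers were 3 higher and 1 lower of 12, with a median of 0.41 and 11 positive. C1qa, a complement subunit made by macrophages, had a log2 fold change of 0.63, Mpeg1, a pore-forming protein of macrophages, 0.62 and Lyz2, lysozyme, 0.56, the last with every runner above every control. Cd163, the haemoglobin scavenger receptor of resident macrophages, differed in the opposite direction, with 17.2, 17.0, 24.8 and 16.0 CPM against 14.0, 11.5, 12.7 and 11.6 CPM, again without overlap. The log2 fold change of Cd163 was -0.59. Without D9, without D57 or without D8 the macrophage count was 0 higher and 1 lower, without D61 it was 1 and 0, and without D11 it was 6 and 0. Ncf1, a cytosolic subunit of the phagocyte NADPH oxidase, was at 3.56, 3.06, 3.49 and 3.32 CPM against 4.33, 6.74, 4.22 and 8.32 CPM, a log2 fold change of 0.81.

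**Figure D3:**
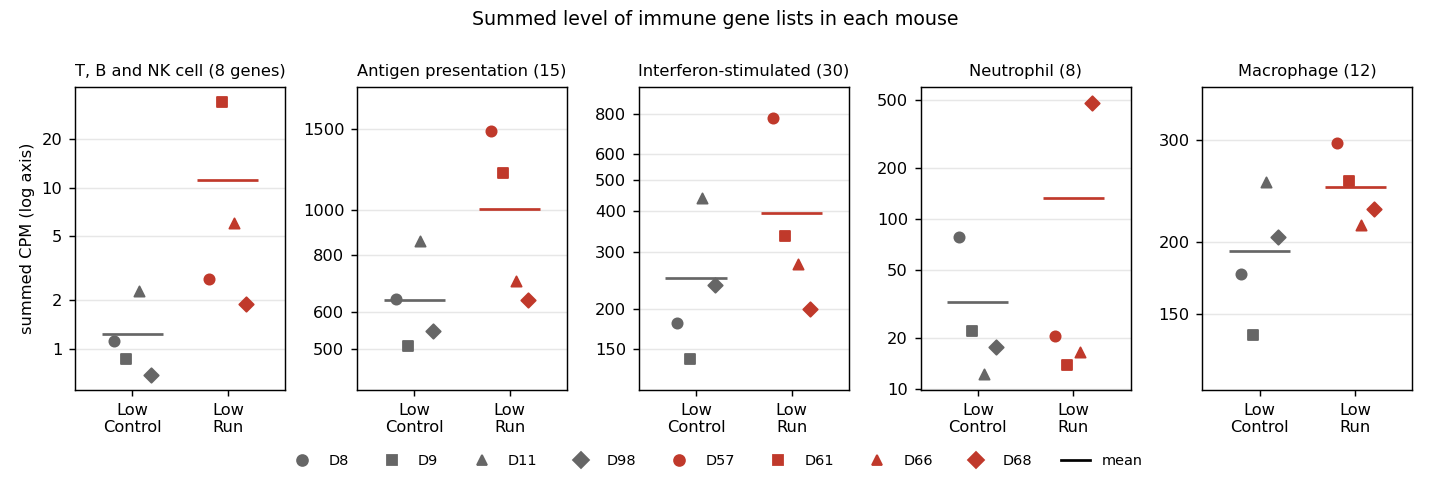
Summed CPM of 5 immune gene lists in each mouse on log axes, Low Control in grey and Low Run in red, with a line at the mean. A single runner is highest for lymphocyte (D61, 33.6 CPM), interferon-stimulated (D57) and neutrophil genes (D68, 481 CPM), and the groups overlap in every panel.

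A minority of the genes of muscle protein breakdown were lower in Low Run at the unadjusted threshold, in a list where D9 was the highest mouse. Of 17 atrophy, FoxO and myostatin genes tested, 0 were higher and 6 lower, with a median log2 fold change of -0.78; without D9, 1 was lower and the median was -0.32, and without D61 or without D66, 3 were lower. Trim63, which encodes the ubiquitin ligase MuRF1 that marks thick filament proteins for degradation, was at 1413, 6083, 452 and 212 CPM in the controls and at 427, 308, 385 and 572 CPM in the runners. Of the runners, 3 lay between the controls D98 and D11 and D68 just above them, while D8 and D9 were higher than all. The log2 fold change of Trim63 was -2.27 (SE 0.91), and -0.72 without D9. Fbxo40, the muscle ubiquitin ligase for the insulin receptor substrate IRS1, was more even. It was at 566, 605, 471 and 458 CPM against 306, 372, 399 and 262 CPM, with no overlap, and its log2 fold change was -0.65 (SE 0.18), and -0.58 without D9. Fbxo31 and Fbxo30, further F-box ligases, had -0.90 and -0.84.

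A FoxO core motif, TTGTTTAC, was found in 1 of the 14 atrophy genes with a RefSeq window (7.14%, against 1.32% of all genes), and that gene was Trim63. It lies 195 to 188 bases before the start, in chr4:134314890-134314967 on the plus strand, with the motif in capitals. The list was made to hold FoxO-related genes and the share rests on Trim63 alone. This too is a description of the list and not of the response.
Trim63: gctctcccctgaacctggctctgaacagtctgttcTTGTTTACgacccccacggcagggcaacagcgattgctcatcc

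Glucocorticoid-responsive genes, fuel genes and clock genes had the same mice at the top. In the glucocorticoid list 4 of 14 were lower and 0 higher, with a median of -0.64, and the median became 0.07 without D9, with 1 lower. Without D57, and without D66, 1 was lower. Fkbp5, a co-chaperone that the glucocorticoid receptor induces, was at 224, 483, 62.6 and 75.8 CPM in Low Control and at 39.3, 24.1, 37.98 and 134 CPM in Low Run. D8 and D9 were highest, and D68 lay among the controls. Zbtb16, a zinc finger repressor also induced by glucocorticoids, was at 245, 459, 144 and 69.8 CPM against 35.3, 85.7, 83.8 and 36.8 CPM, a log2 fold change of -1.92 (SE 0.59), and -1.35 without D9. The control D98 lay among the runners.

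For the fuel switch and fatty acid oxidation list, 3 of 22 were lower and 0 higher, with a median of -0.47; without D9 0 were lower, without D57 or without D61 1 was, and without D98 10 were. Pdk4, the kinase that closes pyruvate dehydrogenase to glucose carbon in fasting, was at 2650, 6837, 753 and 130 CPM in the controls and at 765, 673, 516 and 568 CPM in the runners. The controls spread far more widely than the runners, and D98 was the lowest of all 8 mice. Angptl4, a fasting-induced inhibitor of lipoprotein lipase, had the same order at lower level, with 21.8, 36.8, 3.14 and 2.24 CPM against 6.14, 3.10, 3.20 and 6.62 CPM. In the clock list 5 of 19 were lower and 0 higher, with a median of -0.36; without D9, without D66 or with the length and GC correction 0 were lower. Rora, a nuclear receptor that drives Arntl, was at 201, 635, 153 and 155 CPM against 151, 115, 122 and 181 CPM, and only D9 lay far from the rest. D8 and D9 were the highest mice of both the glucocorticoid and the fuel genes named here, and the part of these mice in the clock and atrophy counts is given by the values without D9.

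Growth signalling genes were lower in 8 of 24 (insulin, IGF and mTOR list, 0 higher, median -0.37), and in 4 of the 24 every runner lay below every control. Without D9 the count was 3 and the median -0.19, and without D57, D61 or D68 the count was 5. The members are long, with a median exon length of 8766 bases. With the length and GC correction the count was 5 and the median -0.21. Insr, the insulin receptor, was at 97.5, 194, 76.4 and 87.8 CPM against 59.9, 66.3, 62.5 and 73.7 CPM, every runner below every control by a margin that was narrow for D11 and D68. Its log2 fold change was -0.80 (SE 0.25), and -0.42 without D9. Tsc1, a brake on mTORC1, and Mtor itself had -0.59 and -0.46, both with every runner below. Atg13, a scaffold of the complex that starts autophagy, was one of 3 of 28 autophagy genes that were lower (0 higher, and 1 and 1 without D9), with -0.78, and -0.38 without D9.

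**Figure D4:**
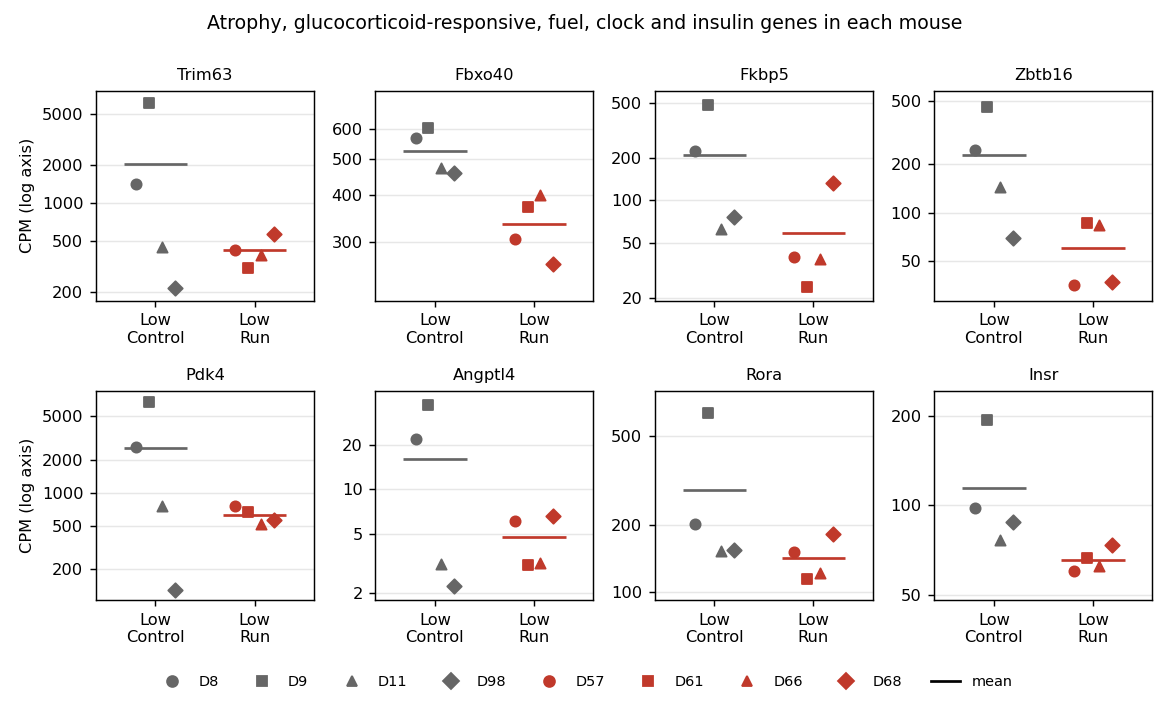
CPM of 8 genes in each mouse on log axes, Low Control in grey and Low Run in red, with a line at the mean. D9 is the highest mouse in every panel, D8 is second in every panel, and the groups are apart in Fbxo40 and Insr.

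Some sarcomere, membrane and cytoskeletal genes of great length were lower in Low Run at the unadjusted threshold. Of 20 giant sarcomere and linker proteins, 0 were higher and 6 lower, 19 had negative values and the median was -0.32, and 4 had no overlap. Among these were Myom1, Dst, a spectraplakin that ties intermediate filaments to actin (-0.52), and Syne1, the nesprin that anchors myonuclei (-0.81). Ttn, the giant spring titin, had -0.10 and an edgeR p of 0.428. Without D9, without D57 or without D68 the number lower was 2. With the correction for exon length and GC content it was 2 and the median was -0.08. In the dystrophin glycoprotein complex, which carries force from actin to laminin, 4 of 19 were lower and 0 higher: Dag1, the dystroglycan precursor (-0.68), Nos1 (-0.70), Lama2, the laminin chain outside the fibre (-0.61), and Dmd, dystrophin (-0.42). The median of the 19 was 0.03, with 10 positive. Nos1, neuronal nitric oxide synthase held at the membrane by syntrophin, was at 135, 141, 138 and 129 CPM in Low Control and at 54.1, 90.9, 107 and 81.7 CPM in Low Run. The controls were nearly level and every runner was below them. The log2 fold change of Nos1 was -0.70 (SE 0.23), and -0.69 without D9.

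Strain and repair genes differed in both directions, 2 of 20 higher and 3 lower, but 0 and 0 without D9, 0 and 1 without D57 or without D68, and 1 and 1 with the length and GC offsets. Xirp1, a repair protein that fills fresh sarcomere lesions, was at 310, 841, 298 and 255 CPM in the controls and at 165, 236, 219 and 157 CPM in the runners. All runners were thus below all controls, and Xirp1 had a log2 fold change of -1.13, and -0.57 without D9, its highest mouse. Flnc, filamin C, and Nrap, both found at lesions and myotendinous junctions, had -0.78 and -0.63. Anxa2, a membrane-repair annexin, had 0.53. Among calcium-handling genes 1 of 23 was higher and 2 lower, and 0 and 0 without D9. Sln, the sarcolipin that uncouples the calcium pump, was at 11.7, 10.6, 26.7 and 27.7 CPM against 111, 18.6, 50.6 and 11.9 CPM, with D57 and D66 high, and Ryr1, the release channel, and Jph1, a junctophilin that holds the triad together, had -0.47 and -0.40. Fast fibre genes were lower in 2 of 10 (Myh4 and Mybpc2), in 0 without D8 and in 3 without D11. The 10 were evenly split, 5 positive and 5 negative, with a median of -0.004 and Mylpf at 0.40. Slow fibre genes were lower in 0 of 11. In the regeneration list H19 was the 1 member higher of 17. Of 25 heat shock genes Hspb3, a small muscle chaperone, was the 1 higher (0.68), and 0 of 20 immediate early genes and 0 of 16 unfolded protein response genes differed at the unadjusted threshold; without D8, 5 immediate early genes were higher.

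Regulators of chromatin, ubiquitin removal and nuclear transport were more often lower than the 7.52% of all genes. Of 55 histone lysine methyltransferases and demethylases, 1 was higher and 22 lower, with a median of -0.36, and 8 had every runner below every control. Kmt2a, a methyltransferase of histone H3 lysine 4, was at 45.3, 71.4, 38.6 and 44.4 CPM against 28.0, 35.7, 33.8 and 30.4 CPM, a log2 fold change of -0.64 (SE 0.19), and -0.43 without D9. Setd1a, of the same class, had -1.01, and Kdm3b, a demethylase, had -0.74. Of 46 Usp deubiquitinases, 0 were higher and 14 lower, with Usp32, Usp38, Usp13 and Usp7 at -0.56, -0.43, -0.72 and -0.47. Of 19 nucleoporins 8 were lower and 0 higher, among them Nup210 (-0.76) and Nup98 (-0.59). Of 52 translation initiation factors 8 were lower and 1 higher. Eif4ebp2, a repressor of cap-dependent translation, was at 454, 415, 365 and 408 CPM against 301, 295, 340 and 289 CPM, a log2 fold change of -0.42, and -0.43 without D9. Of 312 Zfp genes 45 were lower and 3 higher, with Zfp275 and Zfp652 at -0.64 and -0.57.

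These counts moved with D9, D57 and D68, and in part with transcript length. Without D9 the number lower was 3 of the histone enzymes, 4 of the Usp genes, 0 of the nucleoporins, 3 of the initiation factors and 10 of the Zfp genes. Without D57 these numbers were 10, 6, 3, 5 and 22, and without D68 they were 10, 12, 4, 6 and 27. Across 16901 genes the log2 fold change had a Spearman correlation of -0.31 with exon length and 0.04 with GC content, given as a description over genes that are not independent. In the shortest of 5 equal bins of genes (55 to 1746 bases) 9.28% were higher and 1.83% lower, and in the longest bin (6987 to 123179 bases) 1.95% were higher and 17.6% lower. With length and GC offsets for each mouse these became 5.14% and 2.99%, and 5.33% and 7.87%, and the numbers lower were 14 histone enzymes, 10 Usp genes, 7 nucleoporins, 6 initiation factors and 38 Zfp genes. The median deviation of long minus short genes was -0.42 (log2) in D57 and in D68 and 0.35 in D9, while it was 0.06 in D61 and 0.05 in D66 and 0.06 to 0.11 in the other controls, so that the trend with length lay in 3 of the 8 mice. Ribosomal protein genes, which are short, lay on the other side, with 66 of 81 positive, 3 higher, 0 lower and a median of 0.17, which became 0.05 with the offsets. The cause of the trend with length was not tested.

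**Figure D5:**
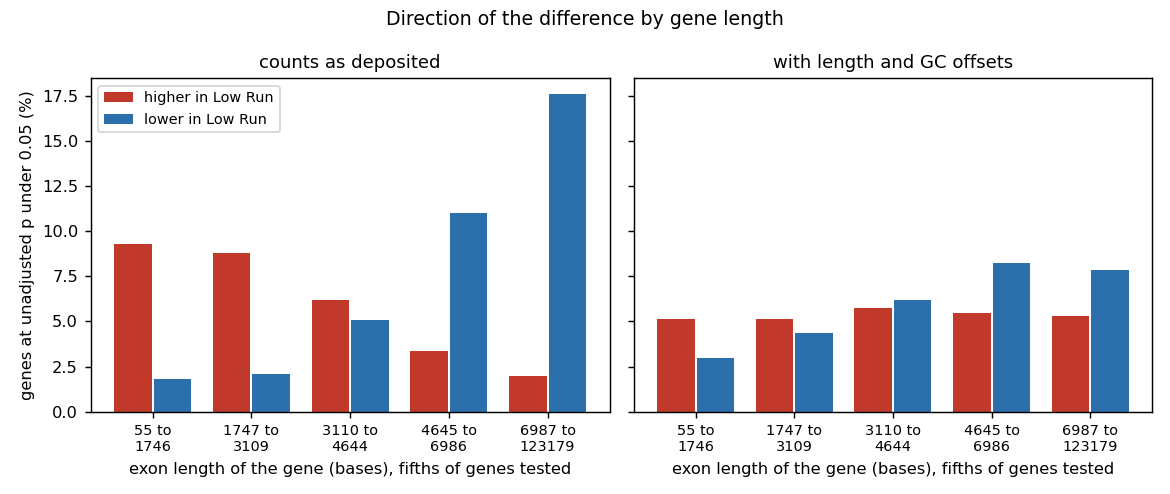
Percent of genes higher (red) or lower (blue) in Low Run at an unadjusted edgeR p under 0.05 in 5 bins of exon length, before and after length and GC offsets. The share lower climbs from 1.83% to 17.6% from the shortest to the longest bin and is 2.99% and 7.87% with the offsets.

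The largest differences on the lower side by the same rule (143 genes) were Kcnj15, Lep, Filip1, 4931406P16Rik, Tfcp2l1, Lrrc52, Garem1, Zfp790, Samd4 and Lpin1. Filip1, a filamin-binding protein that promotes its degradation, was at 102, 197, 68.6 and 74.6 CPM against 27.2, 51.2, 45.8 and 25.1 CPM. Its log2 fold change was -1.57 (SE 0.47), and -1.14 without D9. Lpin1, a phosphatidate phosphatase and co-activator of fat oxidation, was at 520, 1305, 462 and 377 CPM against 238, 280, 314 and 362 CPM, and -1.16 became -0.61 without D9. Zfp790 went from -1.30 to -0.43 and 4931406P16Rik from -1.52 to -0.52, while Kcnj15, a potassium channel, and Tfcp2l1, a transcription factor, kept -1.54 and -1.16.

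Markers of fat cells were all lower in the fitted value, and their count did not depend on D9. Of 9 tested, 3 were lower at the unadjusted threshold (Cidec, Lep and Plin4) and 0 higher, with a median log2 fold change of -0.57, and without D9 the count was again 3 and the median -0.78. Lep, the hormone leptin that adipocytes release in proportion to fat store, was at 12.3, 16.9, 6.63 and 6.14 CPM in Low Control and at 3.28, 2.38, 4.65 and 3.11 CPM in Low Run. Cidec, a lipid droplet fusion protein, was at 31.4, 30.1, 22.6 and 19.2 CPM against 17.6, 10.6, 9.21 and 12.7 CPM. Neither gene had an overlap between groups, and their log2 fold changes were -1.65 (SE 0.49) and -1.04 (SE 0.30). Plin4, a droplet coat protein that muscle fibres also express, was at 652, 978, 410 and 214 CPM against 221, 248, 230 and 253 CPM, with the control D98 below all the runners. Its log2 fold change was -1.24, and -0.85 without D9.

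Tendon markers were 2 of 8 higher (Comp and Scx), all 8 positive, with a median of 0.82; without D57 0 were higher and the median was 0.47, and 0 were higher without D9 or without D11. Comp, a matrix protein of tendon, was at 39.4, 13.7, 19.7 and 13.9 CPM against 116, 17.7, 88.7 and 40.7 CPM. Matrix genes gave 1 higher and 2 lower of 30. Timp1, an inhibitor of matrix metalloproteinases that cells raise after injury, had a log2 fold change of 1.45 (SE 0.45), and 1.24 without D9. Erythroid genes, whose RNA comes from young red cells, were all 8 negative with a median of -1.18, and 0 passed the unadjusted threshold. Without D11 the median was -0.28, whereas 3 of the 8 were lower without D8, without D9, without D68 and with the length and GC offsets. Hba-a1, an alpha globin with a near-identical neighbour, was at 95.4, 109, 477 and 195 CPM against 50.7, 47.9, 124 and 161 CPM. Schwann cell genes were lower in 1 of 9, proliferation genes higher in 3 of 18 and in 0 without D61 or without D9, and satellite cell genes higher in 1 of 10 (Vcam1). Antioxidant genes gave 4 higher, among them Prdx2 and Ncf1, and 2 lower of 24 (1 and 0 without D9), potassium channels 1 higher and 6 lower of 50, and solute carriers 3 higher and 16 lower of 241, of which the last is close to the 7.52% of all genes and was 6 without D9 or without D57. For fibro-adipogenic progenitors, endothelial cells, pericytes and the neuromuscular junction the count was 0 in both directions.

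The same contrast in the mice with more frailty markers was fitted in one model, and 0 of 16920 genes had a difference of the responses at FDR 0.1 (0% called), with 1342 at an unadjusted p under 0.05 (7.93%). Myh4 had nearly the same log2 fold change in both, -0.48 in Low and -0.44 in High mice, and H19 had 0.62 and 0.44. For Kmt2a they were -0.64 and 0.54, a difference of -1.18 with an edgeR p of 0.00083 and an adjusted p of 0.60. For Trim63 they were -2.27 and 1.06, and for Filip1 -1.57 and 0.62. Hba-a1 was -1.19 in Low and 1.87 in High mice, and Cd163 differed by -1.11 between them with an edgeR p of 0.00637. Tfb1m, a methyltransferase of the mitochondrial ribosomal RNA, was at 6.86, 4.76, 7.96 and 8.57 CPM in Low Control and at 10.3, 10.8, 10.4 and 11.5 CPM in Low Run, without overlap. Its log2 fold change was 0.61 in Low and -0.22 in High mice. None of these differences between the responses passed the FDR.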

How the data were processed

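The authors aligned polyA RNA reads to mm10 with STAR 2.7.9a and used featureCounts to count uniquely aligned, properly paired fragments by strand for each nuclear Ensembl gene, and deposited these counts unnormalized. Their deposited variance-stabilized table, on a log2-like scale, was not used. Per the labels, each library is 1 mouse and no batch is given. Of 55450 genes, 16920 passed filterByExpr. They were scaled by TMM and tested with edgeR 4.0.16 (R 4.3.3) in a model of all 15 mice with 1 mean per group, at an FDR of 0.1 by Benjamini-Hochberg. DESeq2 1.42.0, voom in limma 3.58.1, other scalings and filters, loess offsets (span 0.3) for length and GC content and fits without each mouse were alternatives. In simulated Low Run counts, edgeR recovered 58 of 100 genes changed by a log2 of 1 and 97 of 100 changed by 2. It made 12 false calls over 16672 genes. Recovery of such changes in the real counts, with D9 apart and a trend with length in some mice, was not tested. Symbols came from GENCODE M21 (GRCm38) and promoters from RefSeq. Differences within counting error cannot be shown for genes of few counts. Named genes were those of DESeq2 over 15 mice, the largest differences without overlap, and the 4 members of each list with the smallest p; B2m, Ttn, Ccl2, Prkar2b, Igkv12-98 and other list members beyond these were named after their values were seen. Members and gene lists were chosen with earlier results of these data known.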

Additional observations from a re-analysis of the deposited data

Results flagged for a closer look

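Among 178 groups of 4 mice, 23 had 1 mouse whose gap to the nearest other was a larger part of the group's range than Dixon's limit allows. Chance flags about 1 in 20 groups, and genes named for large differences within the same mice are not independent. D9, a Low Control, stood alone in Zfp84 (14.9 CPM), Garem1 (27.4), Zfp790 (34.9), 4931406P16Rik (273), Samd4 (308), Lpin1 (1310) and, with its only count, Ighv1-55 (0.0414). It also stood alone in the summed CPM of Nucleoporins (651), SUMO conjugation genes (863), histone methyltransferases and demethylases (3120) and Usp deubiquitinases (4660). D61, a Low Run mouse, stood alone in Ptprcap (3.68 CPM), Trac (3.42), H2-DMb2 (4.9), Ms4a4b (4.36) and the summed T, B and NK cell markers (33.6). D68, a Low Run mouse, stood alone in Cyc1 (533 CPM), Cox4i1 (859) and summed neutrophil markers (481), and the control D8 in summed neutrophil markers (78.4) and matrix genes (2460). Among the controls Cmya5 was lowest in D11 (2330 CPM), and summed insulin, IGF and mTOR genes stood apart in the runner D66 (2500 CPM).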

How the results depend on the processing

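At FDR 0.1 edgeR called 0 genes with RLE or upper-quartile scaling, in the 8 Low mice alone, with at least 10 counts in every mouse, with length and GC offsets and without any single mouse. Without a filter on low counts it called 86 of 35419 genes, DESeq2 called 10 in all 15 mice and 28 in the 8 Low mice. At an unadjusted p under 0.05 the count of 2274 became 1385 with voom and sample quality weights and 1070 without D9 and D61, a fit added after seeing the data. Without 1 mouse it ranged from 846 (without D9) to 2898 (without D98), and was 1253 without D57. Upper-quartile scaling shifted the median log2 fold change by 0.07. Among list medians 663 values moved by less than the spread between mice and 25 by more. That spread included every mouse, so a single outlying mouse widens it and these counts do not show that a median is stable. Without D9 the glucocorticoid median moved from -0.64 to 0.07 and the atrophy median from -0.78 to -0.32. Of the named genes 10 passed the FDR with DESeq2 in all 15 mice, a count fixed because the naming rule took every such gene, and 14 in the 8 Low mice. T, B and NK markers gave no median in the fit to the 8 Low mice, because none passed the filter on low counts there. No paired analysis was possible because the mice carry identifiers and no shared numbers. Precision is limited by 4 mice per group and, for lymphocyte genes, by few counts.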
